A study of Mus musculus with 21 samples.

Results

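Matricellular proteins and small proteoglycans are secreted into the extracellular matrix, where they bind collagens, growth factors and cell surface receptors. The 10 genes described here were Spp1, Sparc, Postn, Bgn, Dcn, Lum, Tnc, Thbs1, Fn1 and Ccn2. Fn1 (fibronectin) is a structural glycoprotein of the matrix and was kept with them. They were selected on the measured values of these libraries, so their levels and differences are descriptions. Whether a member met the call rule applied to every gene is stated beside them as a description too and supports nothing. Rows were found by gene symbol, and all 10 genes had a row among the 27968 of the sorted-cell table and the 22899 of the coculture table. Ccn2 was listed in both under its older symbol, Ctgf.

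Unlike collagens, most matricellular proteins do not build the fibres of the matrix but change how cells attach to it. Osteopontin (Spp1), periostin (Postn), tenascin C (Tnc), thrombospondin 1 (Thbs1) and Ccn2 act through integrins and, for some of them, CD44, CD47 or CD36. Biglycan (Bgn), decorin (Dcn) and lumican (Lum) are small leucine-rich proteoglycans that bind collagen fibrils and growth factors of the TGF-beta family. In the bone marrow, osteopontin made by the niche is known as a negative regulator of the size of the hematopoietic stem cell pool.

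The study grew mouse pluripotent stem cells of the 129/ola background in a 3D self-assembling peptide and seeded the resulting colonies either on OP9 cells, a bone marrow stromal line treated with mitomycin C, or on 0.1% gelatin. Total cells were sorted from both on day 5 (3D+OP9, and 3D+0.1% gelatin as its control). From the 3D+OP9 culture, lineage-negative Sca-1+ c-kit+ (LSK) cells with and without CD201 were sorted on day 5 (D5-LSKCD201+ and D5-LSKCD201-). They were set beside undifferentiated stem cells sorted with SSEA-1 (mESC, 129/ola) and LSKCD201+ cells from the fetal liver of C57BL/6 embryos at E12.5 (FL-LSKCD201+) and from the bone marrow of C57BL/6 mice aged 6 to 8 weeks (BM-LSKCD201+). Each of the 7 groups had 3 libraries, 21 in all. By the labels, the FL and BM groups differ from the D5 groups in strain as well as in origin, which cannot be told apart. The study kept stem cells derived from both strains, and the labels give 129/ola for each stem cell library used here. The mESC were kept on inactivated mouse embryonic fibroblasts before the sort. OP9 cells carry mouse RNA too, so a transcript in the 3D+OP9 libraries may come from the stem cell progeny or from the stroma. The D5 sorts were made from that culture, and carry-over of OP9 RNA into them was not tested.

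Levels are FPKM, fragments counted per unit of transcript length and of mapped reads, so genes can be compared with each other within a library. Values over a group are the mean ± SD of 3 libraries. A log2 fold change is the difference of mean log2(FPKM + 1), given ± its standard error (SE), and understates the change of low genes. A gene was counted as called where limma's Benjamini-Hochberg adjusted p was below 0.05 and the log2 fold change reached 1 in either direction. Summed FPKM over all genes ranged from 483263 to 620332 per library, and the read depth behind the values is unknown. Pairs of libraries of 1 group correlated at 0.987 to 0.999 across genes, with 3D+OP9 library 3, FL library 1, BM library 1 and D5-LSKCD201- library 2 the farthest from their groups. In bulk RNA, fewer cells of a type and less RNA per cell cannot be told apart. The study calls the libraries of the sorted groups biological replicates. The labels do not say whether any libraries came from separate cultures or animals, so for the coculture p-values may measure only the spread between these libraries.

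The sort antigens were read at the RNA level. Procr, which encodes CD201, stood at 59.7 ± 2.03 FPKM in D5-LSKCD201+ and 3.48 ± 0.411 for D5-LSKCD201-, at 68.4 ± 1.59 in FL, 120 ± 3.21 in BM and 2.40 ± 0.233 in mESC. Kit averaged 28.8 to 119 FPKM and Ly6a (Sca-1) 32.6 to 208 over the 4 LSK groups, against 6.78 and 1.60 in mESC. Marker genes of other cell types were read as well. Ptprc (CD45), the pan-leukocyte antigen, stood at 43.5 ± 7.54 FPKM in FL and 66.8 ± 4.21 in BM. The D5 sorts held far less, 0.409 ± 0.167 with CD201 and 0.633 ± 0.269 without it. Over 10 endothelial markers, the summed level was 2234 to 2268 FPKM in D5-LSKCD201+ and 124 to 133 for the D5-LSKCD201- libraries. Over 8 pluripotency markers it was 24.5 to 32.8 and 3749 to 4247, against 6835 to 7400 in mESC. Over 10 hematopoietic markers, Ptprc among them, the sum was 140 to 143 FPKM in D5-LSKCD201+ and 37.6 to 40.03 for D5-LSKCD201- libraries. In FL it was 1623 to 1900 and in BM 2057 to 2296. Most of the D5-LSKCD201+ sum came from Lcp1, at 92.2 ± 3.97 against 10.1 ± 0.406 without CD201. The means of Ptprc, Rac2, Itgam and Cd48 were lower with CD201. By these markers the D5-LSKCD201+ libraries were rich in endothelial RNA and held far less hematopoietic RNA than FL or BM. The D5-LSKCD201- libraries kept much pluripotency RNA.

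Promoter sequences from RefSeq (GRCm38.p6) were at hand for 5 of the 10 genes: Spp1, Sparc, Postn, Bgn and Tnc. The 250 bases before the transcription start of Spp1, Postn and Bgn are printed because these 3 genes stood higher together in the 3D+OP9 than in the 3D+0.1% gelatin libraries. Capitals mark matches, on either strand, to 5 motifs: TGANTCA for AP-1, GGAATG for TEAD, TGTGGT for RUNX, GGGCGG for Sp1, and the TATA box, searched as TATAAA. The sequences run 5′ to 3′ on the strand of the gene.
Spp1, chr5:104434861-104435110, plus strand: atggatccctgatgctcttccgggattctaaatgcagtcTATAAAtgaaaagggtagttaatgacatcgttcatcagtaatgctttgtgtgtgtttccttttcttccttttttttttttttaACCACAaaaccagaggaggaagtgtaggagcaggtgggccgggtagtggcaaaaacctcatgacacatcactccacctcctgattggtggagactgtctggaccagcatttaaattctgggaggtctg
Postn, chr3:54360857-54361106, plus strand: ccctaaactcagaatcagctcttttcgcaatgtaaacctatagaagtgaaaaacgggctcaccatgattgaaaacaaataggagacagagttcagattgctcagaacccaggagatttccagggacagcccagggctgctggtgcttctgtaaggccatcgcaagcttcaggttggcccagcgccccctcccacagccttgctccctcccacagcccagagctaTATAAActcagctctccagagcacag
Bgn, chrX:73483351-73483600, plus strand: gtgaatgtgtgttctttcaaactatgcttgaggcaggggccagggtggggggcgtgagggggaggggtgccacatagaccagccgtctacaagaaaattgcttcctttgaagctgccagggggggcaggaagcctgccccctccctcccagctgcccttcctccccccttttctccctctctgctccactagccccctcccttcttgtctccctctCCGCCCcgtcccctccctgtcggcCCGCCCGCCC
In Spp1 the RUNX letters, as ACCACA on the strand shown, began 128 bases before the start and the TATA letters 211 bases before it. Postn held the TATA letters 26 bases before its start. Bgn held the Sp1 letters, as CCGCCC, at 34, 10 and 6 bases before its start, the last pair overlapping, and its 250 bases had 64.4% G and C against 43.6% in Spp1 and 52.0% in Postn. The 3 genes that stood higher together thus held no motif of these 5 that all of them shared. Tnc held Sp1 letters at 167 and TATA letters at 126 bases, and the Sparc window held none. The RefSeq start used for Sparc lies 3103 bases from the gene start in GENCODE M21, against at most 7 bases for the others. Its window therefore does not describe the bases before that gene start. Over the same window of all 32851 mouse promoters, 6.75% held the AP-1 letters, 12.6% TEAD, 14% RUNX, 32.7% Sp1 and 12.4% TATA. A match is a description of letters, not a site shown to be bound.

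The 10 genes lie on 8 chromosomes of GRCm38. Spp1 spans chr5:104435118-104441050 on the plus strand, Sparc chr11:55394500-55423183 on the minus strand, Postn chr3:54361109-54391037 on the plus strand and Bgn chrX:73483602-73495933 on the plus strand. Fn1 lies at chr1:71585520-71653200 on the minus strand, Thbs1 at chr2:118111876-118127133 on the plus strand and Tnc at chr4:63959785-64047015 on the minus strand. Dcn (chr10:97479609-97518143), Lum (chr10:97565128-97572703) and Ccn2 (chr10:24595442-24598683) are all on the plus strand of chromosome 10, and all 10 are annotated as protein coding in GENCODE M21. Dcn and Lum lie 46985 bases apart in a cluster of small leucine-rich proteoglycan genes with Kera, a corneal keratan sulphate proteoglycan, and Epyc, a proteoglycan of cartilage. Kera and Epyc were at most 0.00828 FPKM on average in any sorted group, while Dcn reached 3.44 ± 0.323 and Lum 1.57 ± 0.229 in D5-LSKCD201+ cells. Likewise Ibsp, the bone sialoprotein gene of the same cluster as Spp1, averaged at most 0.312 FPKM in any sorted group. The table gave a wider interval than the annotation for Dcn, by 128 bases that held no other gene, and for Fn1, Tnc and Ccn2. The latter intervals covered Apol7d, 8030451A03Rik, Gm11216, Gm15270 and Gm6893, while Gm42793 overlaps Spp1 and Gm29233 overlaps Thbs1. Where these had a row they stood at or below 0.888 FPKM in every sorted library. Whether the counting used strand is not given in the sources used here, so reads of overlapping genes cannot be told apart.

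Across the sorted groups, the 10 genes together were most abundant in D5-LSKCD201+ cells. Their summed level was 2669 to 2941 FPKM there, 1526 to 2182 for D5-LSKCD201-, 474 to 495 in mESC, 29.8 to 35.5 in FL and 24.8 to 38.2 in BM libraries. This was 0.525% to 0.569% of all FPKM in D5-LSKCD201+ and 0.00448% to 0.00628% in BM. A few genes made up most of the sum. Sparc alone gave 48.6% to 52.5% of it in D5-LSKCD201+ libraries, and Spp1 gave 68.3% to 78.9% in D5-LSKCD201- and 70.1% to 71.2% in mESC libraries. In FL the top member was Postn, with 29.4% to 36.9%, and in BM it was Spp1, with 50.4% to 56.7%. By mean level, Sparc ranked 22 and Spp1 42 among the 27968 genes in D5-LSKCD201+ cells, and Spp1 ranked 32 for D5-LSKCD201- cells.

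**Figure D1:**
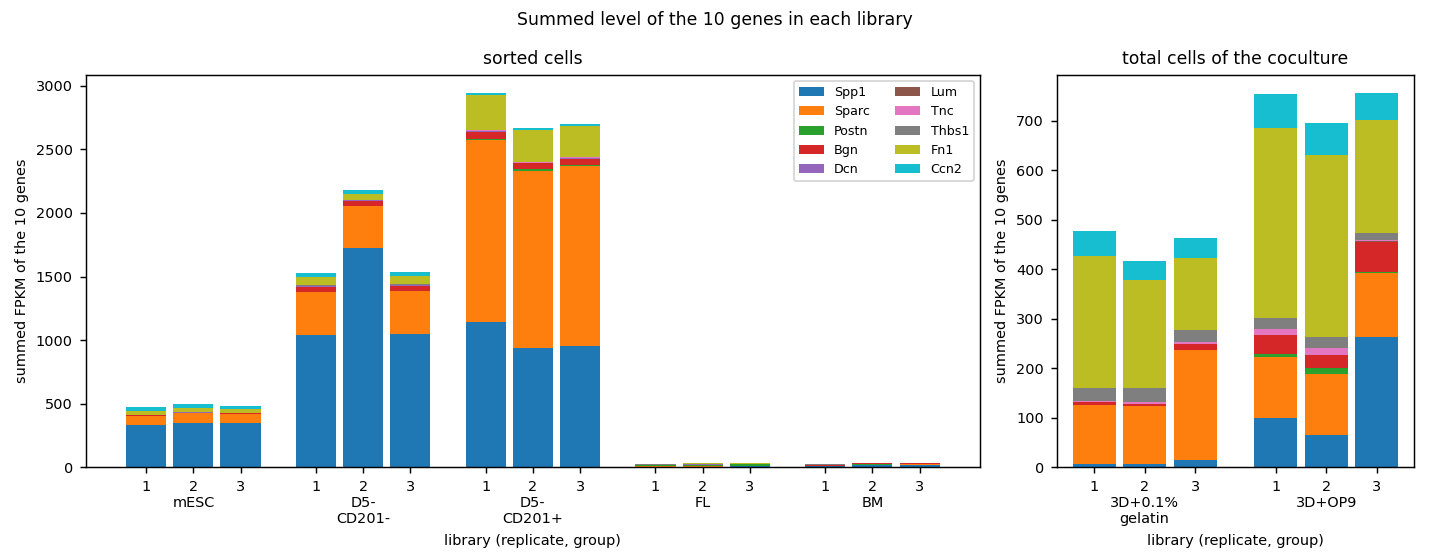
Summed FPKM of the 10 genes in each library (vertical axis, linear, from 0), stacked by gene, with sorted cells on the left and total cells of the day 5 coculture on the right, on separate axes. Spp1 (dark blue) and Sparc (orange) fill most of the D5 bars, and the FL and BM bars, at 24.8 to 38.2 FPKM, are barely visible on this scale.

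Spp1 encodes osteopontin, a phosphorylated glycoprotein that binds alpha-v integrins and CD44. It stood at 1143, 939 and 951 FPKM in the D5-LSKCD201+ libraries, at 1044, 1722 and 1052 for D5-LSKCD201-, at 333, 348 and 346 in mESC, at 12.5, 19.3 and 21.7 in BM and at 6.38, 5.37 and 7.02 in FL. The order was therefore D5-LSKCD201-, D5-LSKCD201+, mESC, BM and FL, and only the 2 D5 groups overlapped. Over the 5 comparisons of sorted groups, 63.5% to 86.1% of all genes tested had ranges apart. D5-LSKCD201- library 2 was the highest of the 15 sorted libraries, and that library also had the lowest Col1a1 of its group, 8.02 against 24.9 and 25.7 FPKM. Without that library the log2 fold change of Spp1, D5-LSKCD201+ over D5-LSKCD201-, was -0.06 in place of -0.30. Why the library stood apart was not tested.

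Sparc encodes osteonectin, a collagen-binding glycoprotein of basement membranes and bone. Its levels were 1430, 1394 and 1419 FPKM in D5-LSKCD201+, 334, 329 and 334 for D5-LSKCD201-, 73.4, 79.9 and 75.6 in mESC, 3.67, 5.99 and 6.30 in FL and 0, 1.78 and 2.50 in BM. All 5 groups were apart from their neighbours in this order, and the SD within either D5 group was under 20 FPKM. BM library 1, where Sparc was listed at 0, also listed Pou5f1 and Dppa5a, both pluripotency genes, at 0, against 0.456 and 0.766 FPKM of Pou5f1 and 5.37 and 8.04 of Dppa5a in the other BM libraries. Whether low Sparc in BM libraries 2 and 3 shares a source with these was not tested.

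Fn1 followed the same order as Sparc. It stood at 276, 251 and 246 FPKM in D5-LSKCD201+, 65.3, 45.5 and 68.0 for D5-LSKCD201-, 31.7, 32.1 and 28.9 in mESC, 5.30, 6.11 and 5.86 in FL and 0.173, 0.214 and 0.227 in BM libraries. No neighbouring groups overlapped. Across the 15 sorted libraries the 2 genes had a Pearson r of 0.978 on the log2 scale, the highest of any pair among the 9 members that averaged at least 0.5 FPKM over them (Lum did not). That value is a description: the libraries form 5 groups and are not 15 independent points.

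Postn encodes periostin, a fasciclin-domain protein that binds integrins and collagen. It was highest in FL rather than in a D5 group, with 11.02, 10.03 and 10.4 FPKM in FL libraries, 7.82, 8.41 and 7.52 in D5-LSKCD201+, 2.13, 3.09 and 2.72 in BM, 1.77, 1.67 and 1.81 for D5-LSKCD201- and 0.307, 0.369 and 0.455 in mESC. Each group was apart from the next. Thbs1 encodes thrombospondin 1, which binds CD47 and CD36 and activates latent TGF-beta, and it too was highest in FL, at 2.80, 4.01 and 3.83 FPKM. It stood at 2.87, 2.53 and 2.53 in BM, 2.08, 1.73 and 1.79 for D5-LSKCD201-, 1.67, 1.24 and 1.40 in D5-LSKCD201+ and 0.517, 0.368 and 0.605 in mESC. FL and BM overlapped for Thbs1, and the other neighbours did not.

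The small leucine-rich proteoglycans differed among themselves. Bgn stood at 57.1, 48.3 and 48.6 FPKM in D5-LSKCD201+, 39.4, 42.6 and 41.6 for D5-LSKCD201-, 7.14, 8.39 and 8.46 in BM, 3.71, 3.29 and 3.60 in mESC and 0.208, 0.445 and 0.597 in FL. It was thus one of the genes that were higher in BM than in FL, as was Spp1, with no overlap. Dcn was at 3.11, 3.47 and 3.76 FPKM in D5-LSKCD201+ and 3.10, 4.12 and 2.48 for the D5-LSKCD201- libraries, which overlapped, and at 0.729, 0.766 and 0.479 in mESC. FL library 1 held 0.152 FPKM of Dcn and FL libraries 2 and 3 held 0.886 and 0.888, while Dcn was listed at 0, 0 and 0.0227 in BM. The same FL library held 0.0520 FPKM of Col1a1 and 0.0416 of Col3a1, against 0.876 and 0.563 of Col1a1 and 0.799 and 0.664 of Col3a1 in the others, and the part of stromal RNA in the FL values was not tested. Lum was above 1 FPKM in D5-LSKCD201+ libraries alone, at 1.37, 1.51 and 1.82. It was at most 0.283 in every mESC, FL and D5-LSKCD201- library and listed at 0 in all 3 BM libraries.

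Tnc and Ccn2 were near 0 in both groups from mice. Tnc, a hexameric glycoprotein of embryonic and wounded tissue, stood at 7.67, 7.15 and 6.66 FPKM in D5-LSKCD201+, 5.23, 3.28 and 4.62 for D5-LSKCD201-, 0.833, 0.546 and 0.417 in mESC, and at most 0.0592 in any FL or BM library. Ccn2, a cysteine-rich protein and a known target of TGF-beta and YAP signalling, was the 1 member with its lowest in vitro level in D5-LSKCD201+ cells. It was at 14.5, 15.03 and 16.1 FPKM there, at 30.8, 31.6 and 32.8 for D5-LSKCD201-, at 30.2, 29.5 and 29.7 in mESC and at most 0.242 in any FL or BM library. The D5-LSKCD201- and mESC ranges of Ccn2 did not overlap, but their means, 31.7 ± 1.0 and 29.8 ± 0.346, were close.

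**Figure D2:**
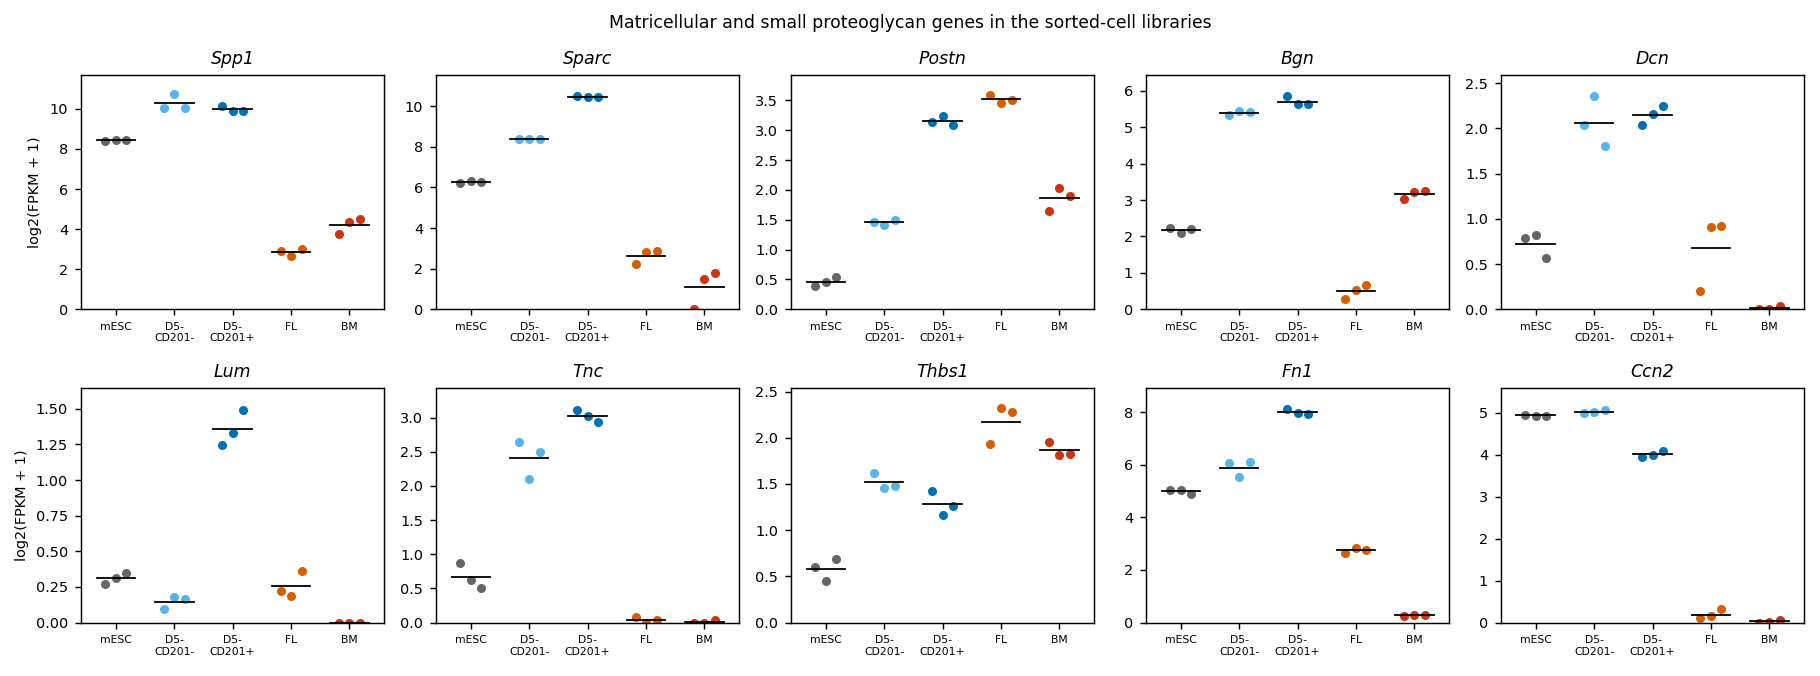
log2(FPKM + 1) of each gene (vertical axis, own scale per panel) in the 5 sorted groups, 1 point per library and a bar at the mean of the 3 log2 values. Sparc and Fn1 peak in D5-LSKCD201+ cells, Ccn2 is lower there than in D5-LSKCD201- cells and mESC, and Postn and Thbs1 peak in FL.

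For each member whose mean over the 15 sorted libraries reached 0.5 FPKM (all but Lum), the 2 genes with the most similar pattern were found among 14441 genes by Pearson r of log2(FPKM + 1). Sparc was most like Rala (r = 0.996) and Mest (0.996), an imprinted gene whose mean ran from 2458 FPKM in D5-LSKCD201+ to 1.20 in BM. Fn1 was like Xpnpep1 (0.993), and the closest were for Tnc Gprc5c (0.994) and Rcan1 (0.993), and for Ccn2 Crabp1 (0.997) and Eno1b (0.996). Spp1 was closest to Slc2a3 (0.990), a glucose transporter, and Gstm2 (0.990), and Postn to Ap1s1 (0.989) and Tmem98 (0.987). Bgn had Gm3739 (0.986) and Trib2 (0.980), and Dcn had Zwint (0.980) and Pgk1 (0.973). No member was among these 2 for another member. With 15 libraries in 5 groups, such values follow mainly from the group means and describe the pattern only.

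The first comparison asked how the D5-LSKCD201+ cells differ from the D5-LSKCD201- cells of the same culture. In it 24.7% of the 13691 genes tested were called, and 5 of the 10 members were, a count that the choice of members used and from which nothing is read. Sparc stood 2.09 ± 0.04 higher on the log2 scale (1414 ± 18.3 against 333 ± 2.72 FPKM), Fn1 2.11 ± 0.15 higher (258 ± 15.7 against 59.6 ± 12.3), Postn 1.70 ± 0.09 higher and Lum 1.21 ± 0.09 higher, or 3.01 with a pseudocount of 0.1. Ccn2 was the 1 called member that was lower, by -1.02 ± 0.07, and without D5-LSKCD201+ library 1 or D5-LSKCD201- library 3 its value was -0.98 or -0.99, short of the fold limit. Tnc (0.62 ± 0.15), Bgn (0.31 ± 0.08), Dcn (0.09 ± 0.15), Thbs1 (-0.24 ± 0.11, with 0.00 after quantile normalization and -0.36 with that pseudocount) and Spp1 (-0.30 ± 0.20) were not called. Spp1 was at -0.06 without D5-LSKCD201- library 2 and at -0.17 after quantile normalization. Marker sums differed beside these genes. The endothelial sums are given above, and the 14 stromal markers summed to 240 to 251 FPKM in D5-LSKCD201+ and 63.6 to 96.8 for the D5-LSKCD201- libraries. Most of that came from Mmp2, a matrix protease, at 148 ± 1.81 against 18.6 ± 0.990 FPKM. The means of Pdgfra (0.676 against 2.61), Pdgfrb (1.301 against 2.19) and Twist2 (0.607 against 1.54) were lower. The 11 endoderm markers summed to 702 to 763 against 191 to 267, mostly from Col4a1, a basement membrane collagen, at 412 ± 27.8 against 34.4 ± 20.1, while Foxa2 was at 0.656 ± 0.113 against 17.9 ± 3.21. The 9 preadipocyte markers summed to 159 to 169 against 24.4 to 30.6, mostly from Dlk1. The sum of the 7 smooth muscle markers was lower, at 183 to 197 against 248 to 342. Acta2 was at 39.4 ± 3.52 against 143 ± 36.4 and Tagln at 10.4 ± 0.826 against 41.6 ± 8.82. Smtn of the same list was higher, at 123 ± 1.26 against 27.2 ± 6.28. The part of cells carrying these markers in the member differences was not tested.

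Against mESC, 37.6% of the 13441 genes tested were called for D5-LSKCD201+ cells, and 8 of the 10 members were, all higher. Sparc stood 4.20 ± 0.04 higher on the log2 scale, Bgn 3.53 ± 0.08 and Fn1 3.02 ± 0.06. Postn was at 2.70 ± 0.08, or 4.08 with a pseudocount of 0.1, Tnc at 2.36 ± 0.11, or 3.42 with it, Spp1 at 1.55 ± 0.07, Dcn at 1.42 ± 0.10 (2.24 with it) and Lum at 1.04 ± 0.09 (2.28 with it). Thbs1 (0.70 ± 0.10) and Ccn2 (-0.93 ± 0.05) did not reach the fold limit. The D5-LSKCD201- cells shared the mESC libraries as their comparison group, and there 14.3% of 13596 genes and 5 of the 9 members tested were called, all higher. Bgn stood 3.22 ± 0.08 higher, Sparc 2.11 ± 0.05, Spp1 1.85 ± 0.18, Tnc 1.74 ± 0.17 (2.70 with that pseudocount) and Dcn 1.34 ± 0.16 (2.13 with it). Postn (0.998 ± 0.09, just under the limit), Thbs1 (0.94 ± 0.10), Fn1 (0.91 ± 0.15) and Ccn2 (0.09 ± 0.06) were not called, and Lum was too low to be tested. Without D5-LSKCD201- library 2, Postn (1.02) and Fn1 (1.09) passed the limit, as did Postn without mESC library 3 (1.04), and without D5-LSKCD201+ library 3 Lum fell short of it in its comparison (0.97). The stromal, endoderm, smooth muscle and endothelial marker sums were higher in both D5 groups than in mESC. The stromal sum was 16.9 to 18.03 FPKM in mESC, against 240 to 251 with CD201 and 63.6 to 96.8 without it. For endoderm it was 11.6 to 13.2 against 702 to 763 and 191 to 267, for smooth muscle 40.1 to 49.0 against 183 to 197 and 248 to 342, and for endothelium 54.7 to 59.4 against 2234 to 2268 and 124 to 133. Their part in the differences from mESC was not tested.

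The comparison with FL-LSKCD201+ cells set the cells made in culture beside cells of the same sort from the embryo. In it 34.7% of the 13627 genes tested were called, and 8 of the 10 members were, all higher in D5-LSKCD201+ cells. Sparc stood 7.83 ± 0.17 higher on the log2 scale, with a ratio of mean FPKM of 266, and Spp1 7.12 ± 0.12 higher, with a ratio of 162. Fn1 (5.26 ± 0.08), Bgn (5.21 ± 0.13), Ccn2 (3.83 ± 0.09), Tnc (2.99 ± 0.09), Dcn (1.47 ± 0.20) and Lum (1.10 ± 0.10) were also called. The last 5 were below 1 FPKM in FL, so the scale understates them. Their ratios of mean FPKM were 123 for Bgn, 106 for Ccn2, 255 for Tnc, 5.37 for Dcn and 7.98 for Lum, against 44.8 for Fn1. With a pseudocount of 0.1 the log2 values were 6.71 for Bgn, 6.03 for Ccn2, 5.85 for Tnc, 5.46 for Fn1, 2.51 for Lum and 2.50 for Dcn. Thbs1 (-0.89 ± 0.14) and Postn (-0.37 ± 0.08) stood lower and were not called, although Thbs1 was at -1.02 and called without FL library 1. The 10 hematopoietic markers summed to 140 to 143 FPKM in D5-LSKCD201+ and 1623 to 1900 in FL libraries. Other sums were higher in D5-LSKCD201+ libraries, as most members were: endothelial, 2234 to 2268 against 457 to 502, stromal, 240 to 251 against 10.6 to 11.6, and endoderm, 702 to 763 against 291 to 453. Within the endoderm list, Col4a1 (412 ± 27.8 against 8.15 ± 0.290) and Sox17 (121 ± 6.88 against 5.32 ± 0.444) were higher, while Afp (0.462 ± 0.0785 against 240 ± 45.5), Apoa1 (0.132 ± 0.150 against 119 ± 39.4) and Ttr (0.140 ± 0.0531 against 23.1 ± 7.58), products of the liver, were lower. Their part in the member differences was not tested, and the labelled strain differed too, so cell content, strain and culture cannot be told apart here.

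Between the 2 groups from mice, FL and BM, 19.1% of the 13503 genes tested were called and 6 members were high enough to be tested, of which 5 were called. Fn1 (2.49 ± 0.11), Postn (1.66 ± 0.13) and Sparc (1.54 ± 0.45) stood higher in FL, and Bgn (-2.67 ± 0.15) and Spp1 (-1.35 ± 0.20) lower. With a pseudocount of 0.1 these were 4.27 for Fn1, 2.74 for Sparc (not called) and -4.05 for Bgn. The Sparc call rested on single libraries, as it was lost without FL library 2 (1.45), FL library 3 (1.42) or BM library 1 (0.99). FL libraries held 240 ± 45.5 FPKM of Afp, a product of fetal hepatocytes, and BM libraries 7.30 ± 1.93, and the part of liver RNA in the FL values was not tested. Thbs1 stood at 0.31 ± 0.14. The 14 stromal markers summed to 10.6 to 11.6 FPKM in FL and 26.0 to 29.3 in BM libraries. Most of that gap was Mmp2, at 2.53 ± 0.728 against 17.5 ± 1.73. The means of Pdgfrb, Cxcl12 and Lox were lower in FL too. Those of Col1a1, Col1a2 (0.996 against 0.314), Col3a1, Fap, Pdgfra, Prrx1, Thy1, Twist2 and Vcam1 were higher in FL. The part of stromal RNA in these differences was not tested.

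**Figure D3:**
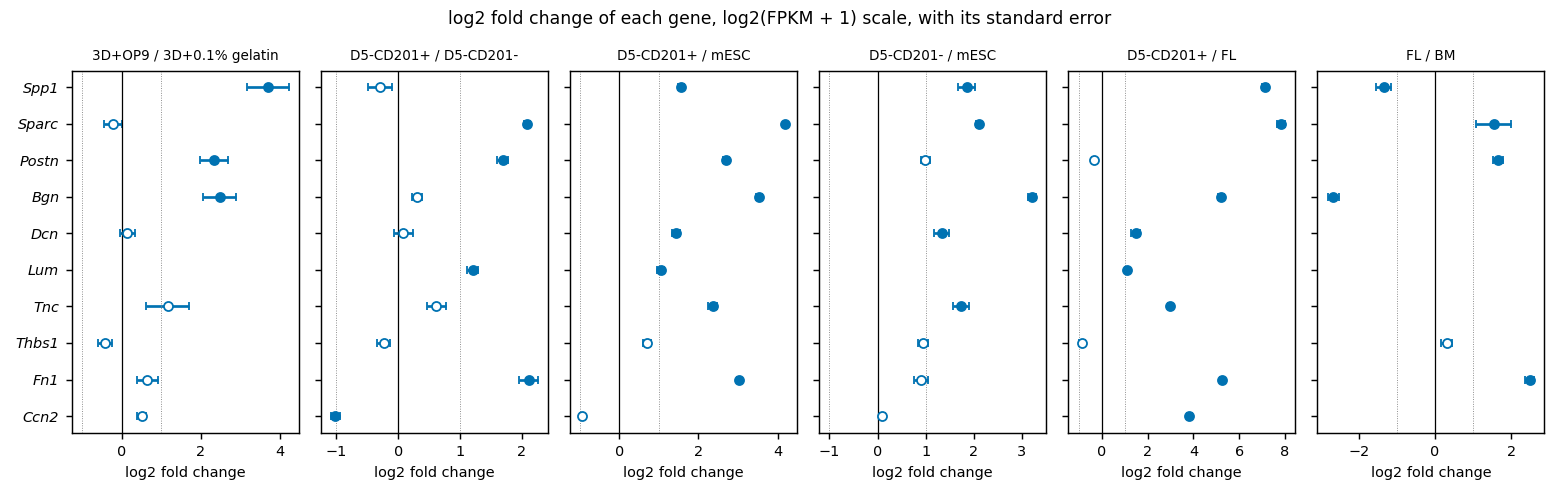
log2 fold change of each gene, first group over second (horizontal axis, own scale per panel), in the 6 comparisons, with bars of 1 SE. Filled points were called, open points were tested and not called, a missing point was too low to be tested, and dotted lines mark a log2 fold change of 1 in either direction. Spp1, Postn and Bgn are filled in the coculture panel and Ccn2 is the 1 filled point left of 0 in the second panel.

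In the coculture, the question was what OP9 stroma changed in total day 5 cells against gelatin. The 10 genes summed to 696 to 756 FPKM in 3D+OP9 and to 417 to 477 in 3D+0.1% gelatin libraries. Here 2.62% of the 12958 genes tested were called, and 3 of the 9 members tested were, Spp1, Postn and Bgn, all higher in 3D+OP9. Spp1 stood at 101, 65.8 and 263 FPKM with OP9 and at 6.11, 5.92 and 15.6 on gelatin, a log2 fold change of 3.70 ± 0.53. Postn was at 5.95, 11.9 and 3.35 against 0.57, 0.21 and 0.59, or 2.34 ± 0.36 (3.59 with a pseudocount of 0.1). Bgn was at 37.3, 25.2 and 60.7 against 5.37, 3.45 and 11.5, or 2.48 ± 0.42. In all 3 genes the ranges were apart, as they were for Ccn2 and Thbs1, 5 members in all, where 28.7% of all genes tested had ranges apart. Library 3 of 3D+OP9 was the highest for Spp1 and Bgn and the lowest for Postn. The 8 pluripotency markers summed to 826 to 1657 FPKM with OP9, the highest in that library, and to 1277 to 1366 on gelatin. Utf1 was at 299 FPKM there against 39.5 and 41.6 in the other 3D+OP9 libraries, and Dppa5a at 350 against 111 and 112. Between the groups, Esrrb (33.1 ± 11.4 against 2.08 ± 0.0964) and Zfp42 (40.1 ± 11.7 against 5.5 ± 1.98) were higher with OP9, and Nanog (73.3 ± 3.22 against 149 ± 37.5) was lower. The part of pluripotency RNA in the member values was not tested. None of the 3 calls held without 3D+0.1% gelatin library 2, where the log2 fold changes were 3.48 for Spp1, 2.21 for Postn and 2.15 for Bgn and the adjusted p missed the threshold. The call of Bgn was also lost without library 1 of either group (2.51 without that of 3D+OP9 and 2.41 without that of gelatin).

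The other members varied within the groups. Tnc stood at 12.3, 13.5 and 2.17 FPKM with OP9 and at 2.60, 2.33 and 3.54 on gelatin, so that 3D+OP9 library 3 lay below every gelatin library, and without it the gene was called at 1.87. Fn1, the most abundant member here in 4 of the 6 libraries, stood at 383, 368 and 230 against 267, 217 and 145, and Ccn2 at 69.2, 64.5 and 53.3 against 50.0, 39.8 and 41.4. Fn1 overlapped between the groups and Ccn2 did not, with log2 fold changes of 0.65 ± 0.26 and 0.50 ± 0.13. Thbs1 was at 22.5, 21.8 and 14.3 with OP9, below the 25.5, 29.3 and 23.7 of gelatin in every library, with a difference of -0.43 ± 0.17. Sparc was at 123, 124 and 129 against 120, 119 and 221, a difference of -0.22 ± 0.22 that was 0.07 without gelatin library 3. That library also held 108 FPKM of Col4a1 against 43.0 and 43.1 in the others, and the part of endoderm-like RNA in it was not tested. Dcn was at 0.65, 1.04 and 0.35 against 0.33, 0.48 and 0.71, and Lum was at most 0.25 FPKM in all 6 libraries.

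**Figure D4:**
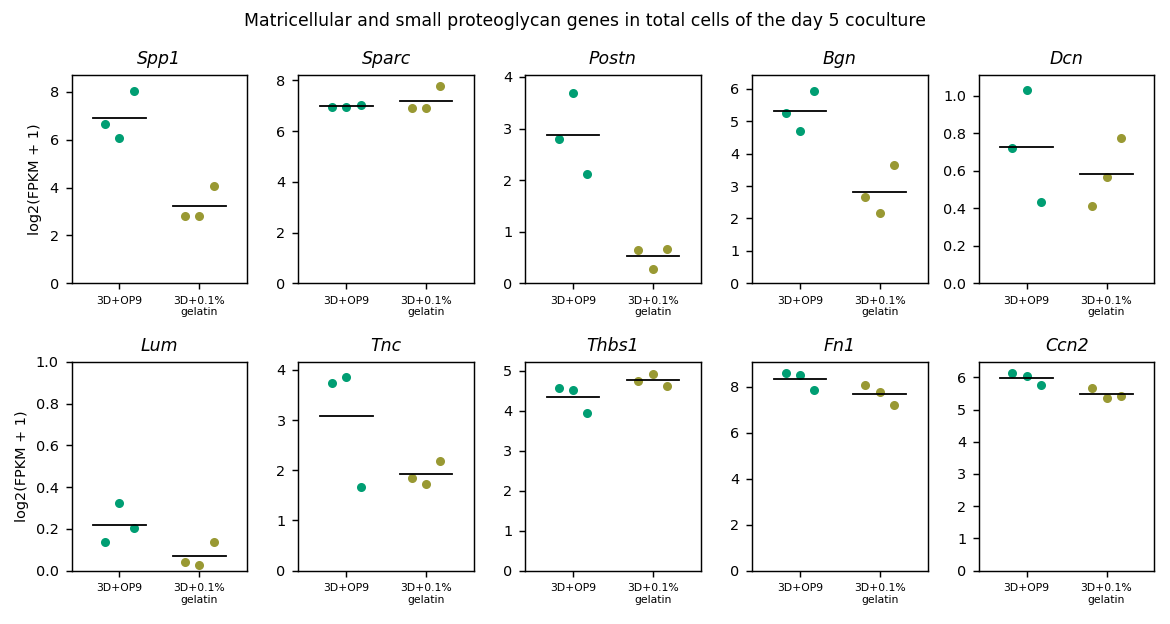
log2(FPKM + 1) of each gene (vertical axis, own scale per panel) in the 3 libraries of 3D+0.1% gelatin and the 3 of 3D+OP9, with a bar at the mean of the log2 values. The Spp1, Postn and Bgn points of 3D+OP9 lie above all gelatin points, and 1 of the 3D+OP9 Tnc points lies below them.

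Several marker lists differed between the coculture groups beside these genes. The 14 stromal markers summed to 109 to 121 FPKM in 3D+OP9 and 72.2 to 84.6 on gelatin, with Col1a2 at 10.8 ± 2.32 against 2.99 ± 0.55 and Col3a1 at 3.91 ± 0.252 against 0.853 ± 0.469. Cxcl12 averaged 12.2 against 14.3 and Thy1 4.79 against 4.42, and both overlapped between the groups. The 9 preadipocyte markers, listed because OP9 cells can become adipocytes, summed to 49.1 to 63.7 against 29.2 to 36.7. Most of that gap was Dlk1 (31.7 ± 7.15 against 12.3 ± 2.80). Fabp4 (1.99 to 3.95 against 0 to 0.17) and Pparg (0.55 to 1.39 against 0.08 to 0.23) were also apart, while the means of Cebpa (1.303 against 1.46), Adipoq (0.0267 against 0.07) and Zfp423 (12.6 against 12.7) were not higher, and Cfd was at 0 in all 3 OP9 libraries. Endothelial markers summed to 118 to 141 against 23.4 to 39.7, and 7 smooth muscle markers to 96.1 to 119 against 246 to 278. The lower smooth muscle sum came mainly from Tagln (26.9 ± 9.30 against 136 ± 8.72), while Des was higher in every 3D+OP9 library (3.63 to 5.26 against 1.69 to 2.43) and Smtn was at 16.1 ± 1.76 against 14.4 ± 1.24. The 10 hematopoietic markers summed to 15.3 to 20.2 against 7.24 to 9.04, mostly through Laptm5 (6.40 ± 1.59 against 0.337 ± 0.148), with Spi1 at 2.49 ± 0.370 against 0.263 ± 0.161. Lcp1 overlapped between the groups, and Coro1a was lower in every 3D+OP9 library (1.54 to 3.38 against 4.09 to 4.61). Ptprc was at most 0.11 FPKM in all 6. The 9 megakaryocyte markers summed to 8.79 to 10.2 against 0.5 to 0.9, with Itga2b, an integrin subunit that also pairs with Itgb3, at 6.24 to 7.93 against 0.25 to 0.53 FPKM. These 5 sums (stromal, preadipocyte, endothelial, hematopoietic and megakaryocyte) were thus higher, and the smooth muscle sum lower, in every 3D+OP9 library than in every gelatin library. Whether Spp1, Postn and Bgn came from OP9 cells or from cells grown with them was not tested.

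Other genes of the same families were read from a list of 46, of which 24 were tested in the coculture. This list and those below were chosen with earlier results of these data known. Their shares and medians are therefore descriptions in every comparison. With OP9, 5 rose, none fell and 19 did not pass, so that 20.8% of those tested were called against 2.62% of all genes, and the median log2 fold change was 0.35 against 0.01 over all genes. With a pseudocount of 0.1, 10 were called. Emilin1, an elastin-associated glycoprotein, rose by 1.78 ± 0.15 (limma, adjusted p 0.00127; 5.29 ± 0.701 against 0.837 ± 0.235 FPKM). Ccn5, of the same family as Ccn2, rose by 1.53 ± 0.17 (adjusted p 0.00313), and Tgfbi, a fasciclin-domain relative of Postn, by 1.498 ± 0.19 (adjusted p 0.00575). All 3 of these had the lowest 3D+OP9 library above the highest gelatin library, where 28.7% of all genes tested had ranges apart. They were picked for the size of their change, so this adds nothing to their calls. Of 22 receptors for these proteins, 18 were tested and 2 (11.1%) rose: Itgb3, the integrin subunit that pairs with Itgav to bind osteopontin, by 1.97 ± 0.13 (adjusted p 0.000623) and Stab1, a scavenger receptor for Sparc, by 1.15 ± 0.16 (adjusted p 0.00738). Stab1 dropped below the limit after quantile normalization, at 0.997. Of 26 genes of TGF-beta and YAP signalling, 25 were tested and 1 (4%) rose, Eng, an endothelial TGF-beta co-receptor, by 1.13 ± 0.21 (adjusted p 0.0213), and that call was lost without 3D+OP9 library 2 (1.17), 3D+OP9 library 3 (0.99), gelatin library 1 (0.91) or gelatin library 2 (1.23). The median of this list, -0.01, was near that of all genes.

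Between the D5 groups, 25 of the related matrix genes were tested, of which 4 were higher and 6 lower in D5-LSKCD201+ cells, or 40% called against 24.7% of all genes, with a median of -0.07 against -0.12 over all genes. After quantile normalization 6 were called. Sparcl1, the closest relative of Sparc, was higher by 4.36 ± 0.13 (limma, adjusted p 2.56e-07), at 97.2 ± 4.20 against 3.82 ± 0.839 FPKM. Emilin1 (3.22 ± 0.26) and Fstl1, a secreted protein with a Sparc-like domain (1.67 ± 0.05), were higher too. Fbln1, a fibulin of elastic and basement membrane matrix, was lower by -2.19 ± 0.17 (adjusted p 2.55e-05), as were the Sparc relatives Smoc2 (-1.46 ± 0.10) and Spock3 (-1.23 ± 0.07). Genes with Sparc-like domains thus lay on both sides. Spock3 was short of the limit after quantile normalization, at -0.97. Of 19 receptors tested, 9 were higher and 2 lower (57.9% called), with a median of 0.65. Stab1 (3.94 ± 0.10), Itga5, the fibronectin receptor subunit (2.20 ± 0.19), and Tlr4, which biglycan engages (2.05 ± 0.14), were higher, and Itgb5 (-1.89 ± 0.30) and Sdc4 (-1.37 ± 0.25) lower. Of 24 TGF-beta and YAP genes tested, 6 were higher and 3 lower (37.5% called). Eng (4.11 ± 0.07), Tgfbr2 (3.55 ± 0.12) and Wwtr1, encoding the YAP partner TAZ (2.12 ± 0.09), were higher. Tgfb2 (-2.12 ± 0.09), Ankrd1 (-1.48 ± 0.30) and Ajuba (-1.31 ± 0.09) were lower. Ankrd1, a target of YAP, stood at 3.86 ± 2.32 FPKM in the D5-LSKCD201- libraries against 0.627 ± 0.203 with CD201. Wwtr1 of the same list went the other way, and YAP activity was not tested. The limma adjusted p of each gene named here was at most 0.00382.

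Against mESC, 13 of 21 related genes tested were higher and 2 lower in D5-LSKCD201+ cells, or 71.4% called against 37.6% of all genes, with a median of 1.37 against -0.07 over all genes. Sparcl1 (6.44 ± 0.06), Emilin1 (4.31 ± 0.06) and Ccn5 (4.08 ± 0.09) had the largest rises, and Thbs3 (-1.52 ± 0.14) and Fbln1 (-1.10 ± 0.08) fell. Ccn5 stood at 18.5 ± 2.12 FPKM against 0.149 ± 0.0446, while its relative Ccn2 was not called. Of 17 receptors, 9 were higher and 1 lower (58.8% called), with Stab1 (4.91 ± 0.08), Cd47 (3.55 ± 0.12) and Cd44 (2.77 ± 0.09) leading and Itgb5 (-2.07 ± 0.15) the 1 that fell. Of 23 TGF-beta and YAP genes, 10 were higher and 3 lower (56.5% called). Tgfbr2 (4.23 ± 0.07), Eng (4.10 ± 0.04) and Tgfbr3 (3.87 ± 0.08) rose, and Ajuba (-1.92 ± 0.05), Smad7 (-1.92 ± 0.17) and Skil (-1.11 ± 0.08) fell. The last pair are feedback inhibitors of TGF-beta signalling. In limma, the adjusted p of each gene named in this paragraph was at most 6.01e-06.

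Against FL, 15 of 21 related genes tested were higher and 2 lower, or 81% called against 34.7% of all genes, with a median of 1.36 against -0.16 over all genes. Sparcl1 (6.40 ± 0.07), Efemp2 (4.57 ± 0.18) and Ccn1 (4.52 ± 0.12) were higher, and Vtn, encoding vitronectin, which the liver secretes, was lower by -3.77 ± 0.11, as was Chad (-1.35 ± 0.11). Of 18 receptors tested, 6 were higher and 3 lower (50% called). Stab1 (4.31 ± 0.14), Itga5 (2.78 ± 0.13) and Itgb1 (2.06 ± 0.09) were higher. Itga4 (-3.41 ± 0.10), Cd44 (-2.19 ± 0.09) and Cd47 (-1.78 ± 0.08) were lower. Itga4 stood at 0.221 ± 0.0865 FPKM in D5-LSKCD201+ and 12.01 ± 0.834 in FL libraries. Of 24 TGF-beta and YAP genes, 14 were higher and 1, Srf (-1.41 ± 0.14), lower (62.5% called), with a median of 1.07. Wwtr1 (4.74 ± 0.09), Tead2 (3.64 ± 0.10) and Amotl2 (3.35 ± 0.09), all of the YAP branch, led. The limma adjusted p of each gene named here was at most 9.93e-05. The 3 comparisons of D5-LSKCD201+ cells share those libraries, so a gene high in all 3 was not measured 3 times.

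**Figure D5:**
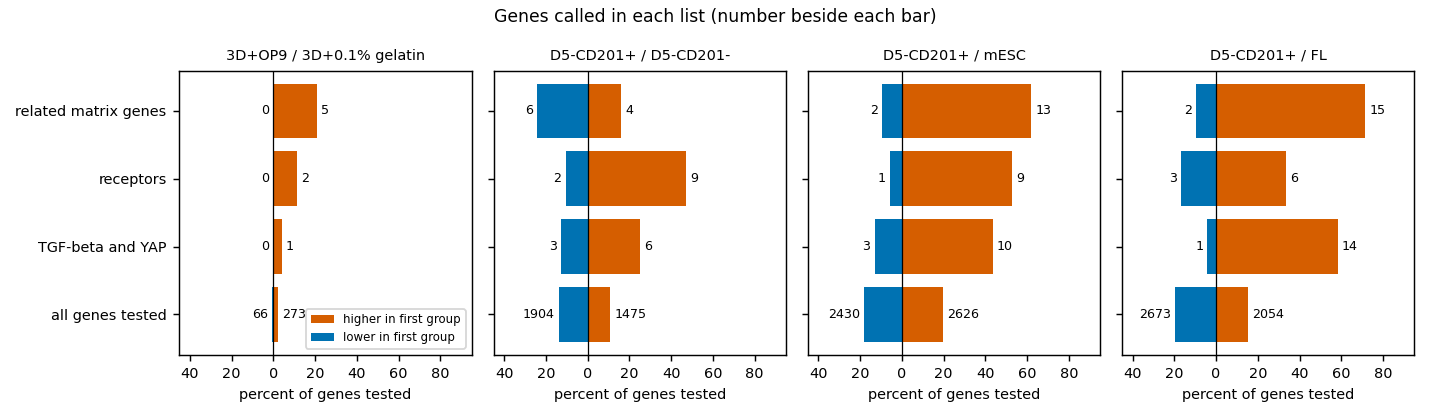
Share of the genes tested in each list (horizontal axis, percent; higher in the first group to the right, lower to the left) that passed the call rule in 4 comparisons, with the number of genes beside each bar and all genes tested as the lowest row. The related matrix genes are mostly to the right against mESC (13 higher, 2 lower) and FL (15 and 2), and lie on both sides between the D5 groups (4 and 6).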

How the data were processed

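RNA-seq libraries of 21 samples were read from 2 tables of FPKM values that the authors deposited, 1 for the coculture (6 libraries) and 1 for the sorted cells (15 libraries). Per the study's methods, paired-end reads were aligned to GRCm38 with HISAT2 (2.0.5) and assembled and quantified with StringTie (1.3.3). The submitters' processing notes also name Cuffdiff (1.3.0) and mm9, and the gene positions in the sorted-cell table fit GRCm38. The coculture table's own processing is not given in the sources used here. The tables were normalized separately and are never compared. In the coculture table, 3578 rows without values were left out. FPKM keeps no read depth, so no counting intervals are given.

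Groups were compared with limma (3.58.1, R 4.3.3; lmFit and eBayes with trend) on log2(FPKM + 1), 2 groups per fit, over genes whose mean reached 0.5 FPKM, two-sided, with Benjamini-Hochberg adjustment over all genes tested. The fit was checked on simulated data. The members and gene lists were chosen with earlier results of these data known. The text names all 10 members and, from each list, comparison and direction, up to 3 called genes with the largest absolute log2 fold change. Likeness was Pearson r over 15 libraries. Some of the genes it found are not reported here. Other settings tried were quantile normalization, a pseudocount of 0.1, a minimum mean of 1 FPKM or none, the replicate number as a block, 1 fit over all sorted groups, and leaving out each library. Same-numbered FL and BM libraries deviated together in all 3 pairs (r = 0.242, 0.202 and 0.159), so the numbers may pair them, a hint from the data and not the labels. For pairs 2 and 3 the best correlation with another number was as high (0.205 and 0.162). Same-numbered coculture libraries also deviated together (r = 0.182, 0.0724 and 0.291 for numbers 1, 2 and 3), so their numbers may pair them too. The best correlations with another number were 0.112, 0.167 and -0.107 there. The values printed come from the fit without the block. With it, each member call in the coculture and between FL and BM was the same. Figures were drawn with matplotlib (3.10.9).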

Additional observations from a re-analysis of the deposited data

How the results depend on the processing

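In the coculture, counts depended on the settings and on single libraries. Genes called numbered 339, 531 with a pseudocount of 0.1, and 209 to 444 when 1 library was left out, the lowest without 3D+0.1% gelatin library 2. Members called ranged from 0 to 4 on leaving out 1 library, again lowest without that library. The related list gave 10 calls in place of 5 with a pseudocount of 0.1, the receptors 1 in place of 2 with a filter at 1 FPKM and 1 with quantile normalization, and the TGF-beta and YAP list 0 to 3 in place of 1 without single libraries. Between the D5 groups, quantile normalization gave 6 related genes called in place of 10, and it moved the median of all genes from -0.12 to -0.01. It moved that median from 0.05 to -0.10 for D5-LSKCD201- against mESC, from -0.16 to -0.05 for D5-LSKCD201+ against FL and from -0.13 to -0.02 for FL against BM. The cause of these shifts was not tested. Of the other counts, none moved by over 1.5 times, and no called value changed sign. Among members, Thbs1 passed the limit with a pseudocount of 0.1 in D5-LSKCD201+ against mESC (1.38) and against FL (-1.24), and Postn (1.96) and Thbs1 (1.74) did in D5-LSKCD201- against mESC. Sparc between FL and BM was not called with a pseudocount of 0.1 (2.74) or without the filter (1.54). With a filter at 1 FPKM, Lum was not tested in any comparison. The replicate block gave 379 genes called in the coculture and 2607 between FL and BM (2581 without it), and left the count of members called in each of the 6 comparisons as it was. Outside the coculture and FL against BM, the numbers were not read as pairs. Without counts, a value of 0 cannot be given an upper limit.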
